A study of Mus musculus with 3 samples.

Results

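The 31 genes described here encode enzymes and regulators of cholesterol synthesis, of fatty acid synthesis and of the galactolipids of myelin. They were listed by symbol, and all 31 were found among the 30559 genes of the deposited matrices. By role they comprised 9 genes of the mevalonate and squalene steps, 9 of the steps from lanosterol to cholesterol, 5 of the SREBP regulators, 6 of fatty acid synthesis and 2 of galactolipid synthesis. Their UMIs (unique molecular identifiers, each counting 1 captured RNA molecule) were summed per library and kind of nucleus, above all in nuclei with at least 4 UMIs of the myelin genes Mog, Mag, Mobp and Ermn together (oligodendrocyte-gated nuclei), and were set against all other nuclei. No member was a gate gene.

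Nuclear RNA was sequenced from mouse neurospheres grown from the subventricular zone, a niche of neural stem cells, and differentiated until day 15 in vitro. There were 3 libraries, labelled control, CBPf/f and p300f/f by genotype, and each was 1 pool of about 15 cultures, so a condition had no biological replicate. By the study's methods, stem cells of newborn pups of floxed Crebbp or Ep300 lines on a C57BL/6 background received a lentivirus with Cre fused to mCherry, or an RFP lentivirus as the control, and nuclei were sorted before loading. All 3 labels, that of the control included, name tamoxifen as the treatment. The sources used here do not say which floxed line gave the control pool. CBP and p300, encoded by Crebbp and Ep300, are lysine acetyltransferases that serve as transcriptional coactivators. In all nuclei Crebbp was counted at 335, 370 and 365 CPM (UMIs per 1000000 UMIs of the sum), and Ep300 at 114, 136 and 115 CPM, where values in such a row of 3 are here and throughout those of the control, the CBP-ablated and the p300-ablated library, in that order. Neither gene was thus lower than in the control in the library labelled for its loss, though Ep300 was lower in the p300-ablated than in the CBP-ablated library. Sums over the whole gene, introns included, do not resolve the floxed exons. The study states that removal of both proteins was checked in differentiating cultures, and the figure it cites shows antibody staining for CBP. CBP-ablated and p300-ablated are the libraries' labels in all that follows, and the loss itself was not seen in these RNA counts.

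The 3 matrices contained 4884, 3017 and 4648 nuclei with 16312170, 12748336 and 18876682 UMIs, or medians of 3219, 4016 and 3902.5 UMIs per nucleus. Any 2 libraries shared between 1 and 7 barcodes. The gate held 170, 513 and 200 nuclei (3.48%, 17% and 4.3% of the libraries), and 89.4%, 92.8% and 94% of them fell in the cluster of oligodendrocyte-like nuclei. All 7 oligodendrocyte markers outside the gate genes were at least 2-fold higher in gated than in other nuclei of each library, with summed levels of 5383, 6223 and 6020 CPM against 118, 529 and 85.7 CPM. Gated nuclei were also deeper, with medians of 5310.5, 5940 and 6159 UMIs against 3185, 3755.5 and 3859 in the others. The other nuclei were not a common reference: in the CBP-ablated library 20.2% of all nuclei were committed or newly forming oligodendrocyte-like, against 8.09% in the control and 5.08% in the p300-ablated library, and astrocyte-like nuclei numbered 1279 in the control and 0 in both ablated libraries, which allows shares of up to 0.0994% and 0.0645%. The share of a difference outside the gate that comes from this composition was not tested, except where a value without a class is given.

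Cholesterol is made from acetyl-CoA through mevalonate, isoprenoids and squalene, which is closed to lanosterol and trimmed to cholesterol. Its genes are under the shared control of SREBP transcription factors, which SCAP carries to the Golgi when sterols are low and INSIG proteins hold back when sterols are high. Myelin is rich in cholesterol, in galactosylceramide and in long fatty acids, and oligodendrocytes make much of the cholesterol they need themselves while they wrap axons.

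Promoter sequences of the members were searched for 4 short motifs. RefSeq windows (GRCm38.p6) of the 250 bases before the start site were matched for 25 of the 31 members. Each gene gave 1 window, the first listed, which need not lie at its outermost start. Those of Acaca (chr11:84195188-84195437) and Tm7sf2 (chr19:6067851-6068100) lie inside the genes (chr11:84129672-84401651 and chr19:6062821-6068373). Most of the Msmo1 window printed below lies inside Msmo1 (chr8:64718139-64733792). Other windows, such as that of Hsd17b7, overlap their gene in part. The letters CCAAT, a box bound by NF-Y, which works beside SREBP at many sterol genes, occurred on either strand in 19 of these 25 windows, in 13 of 15 of the sterol synthesis genes and 6 of the 10 others, against 34.5% of the windows of all 27025 genes. GGGCGG, the GC box, occurred in 14 of 15 sterol windows and 3 of the 10 others, against 32.9% of all windows. The windows of all genes were not matched to those of the members in base composition. TCACNCCAC, the sterol regulatory element, was held by 1.04% of all windows and by 1 member, Hmgcs1, at 137 bases before the start. TCACNTGA, an E-box form that SREBP can bind, was held by 3.49% of all windows and by 0 members. In the windows printed here no match of 1 motif overlapped a match of another. Below are the windows of the genes that the results turn on: Hmgcs1 and Msmo1 as sterol genes of the early and the late steps, Hsd17b7 as the sterol gene that stood apart, and Ugt8a as the galactolipid gene. They lie at chr13:119690101-119690350 (plus strand), chr8:64733579-64733828, chr1:169969206-169969455 and chr3:125938653-125938902 (minus strand), are written 5′ to 3′ in the direction of the gene, and have CCAAT, its complement ATTGG and the sterol regulatory element in capitals.
Hmgcs1: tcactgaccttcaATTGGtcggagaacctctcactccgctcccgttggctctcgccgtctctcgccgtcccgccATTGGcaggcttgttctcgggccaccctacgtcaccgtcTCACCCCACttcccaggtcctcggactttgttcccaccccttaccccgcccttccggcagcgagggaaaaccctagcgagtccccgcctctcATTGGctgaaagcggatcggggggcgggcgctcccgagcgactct
Msmo1: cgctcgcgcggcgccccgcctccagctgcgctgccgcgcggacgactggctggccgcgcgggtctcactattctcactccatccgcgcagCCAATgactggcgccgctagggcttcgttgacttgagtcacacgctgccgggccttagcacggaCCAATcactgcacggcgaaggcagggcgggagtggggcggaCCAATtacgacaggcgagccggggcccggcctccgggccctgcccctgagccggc
Hsd17b7: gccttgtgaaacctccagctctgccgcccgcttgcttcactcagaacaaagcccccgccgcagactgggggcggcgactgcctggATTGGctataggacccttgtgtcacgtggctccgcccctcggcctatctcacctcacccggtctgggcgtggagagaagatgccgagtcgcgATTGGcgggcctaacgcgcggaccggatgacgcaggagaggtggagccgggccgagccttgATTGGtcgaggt
Ugt8a: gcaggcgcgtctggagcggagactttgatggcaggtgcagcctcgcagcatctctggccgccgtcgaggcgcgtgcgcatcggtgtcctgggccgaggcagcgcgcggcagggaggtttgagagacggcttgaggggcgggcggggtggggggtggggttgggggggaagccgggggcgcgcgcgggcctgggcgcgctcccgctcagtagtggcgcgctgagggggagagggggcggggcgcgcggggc
The windows of Hmgcs1, Msmo1 and Hsd17b7 held 3 CCAAT boxes each and that of Ugt8a held 0, with 2, 2, 3 and 3 GC boxes.

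Of the 30 members with enough UMIs for a test, 9 were higher in oligodendrocyte-gated nuclei than in all other nuclei (30%, where 15.8% of all 14766 genes tested were), 2 were lower (6.67%, where 21.8% of all genes were) and 19 were not called (edgeR's quasi-likelihood test on the sums of the 3 libraries, library as a block, Benjamini-Hochberg adjusted p below 0.05). The median log2 difference was 0.21 over the members and -0.07 over all genes. The higher genes were Hsd17b7, Ebp and Nsdhl of the late sterol steps, Mvk and Acat2 of the early ones, Acaca and Scd2 of fatty acid synthesis, and Ugt8a and Fa2h of galactolipid synthesis. Log2 differences of the fit use TMM scaling. With plain division by total UMIs the median of all genes moved to -0.31 and that of the members to -0.03, and the calls became 6 higher (without Nsdhl, Acat2 and Scd2) and 7 lower (Elovl5, Elovl6, Fasn, Hmgcs1, Scd1, Sqle and Srebf1). CPM values below are on the plain scale, so that a CPM ratio lies lower than the fitted difference.

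The galactolipid pair stood highest together with Hsd17b7. Ugt8a, which attaches galactose to ceramide and so makes galactosylceramide, lies at chr3:125865271-125938619 (minus strand, GRCm38). Its level in gated nuclei was 642, 716 and 596 CPM, and in the other nuclei it was 139, 251 and 156 CPM. The gated values lay far above the others in every library, and the fitted log2 difference was 2.12 ± 0.16 (SE, n = 3 libraries, edgeR adjusted p = 4.77e-07). Fa2h, which hydroxylates the fatty acids of these lipids, lies at chr8:111345135-111393824 (minus strand). It was counted at 253, 261 and 305 CPM in gated nuclei and at 43.6, 93.9 and 39.0 CPM in the others, a log2 difference of 2.55 ± 0.23 (SE, n = 3, edgeR adjusted p = 1.86e-06). For both genes the other nuclei of the CBP-ablated library, where committed nuclei were most frequent, had the highest level among the other nuclei. In microglia-like nuclei, which should lack both enzymes and so give a background, Ugt8a was at 35.1, 174 and 21.3 CPM and Fa2h at 21.1, 67.5 and 21.3 CPM, from medians of 1134, 1010 and 1664 UMIs per nucleus. These rest on 3 to 18 UMIs per library, and the part of free RNA and of doublets in them was not tested.

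**Figure D1:**
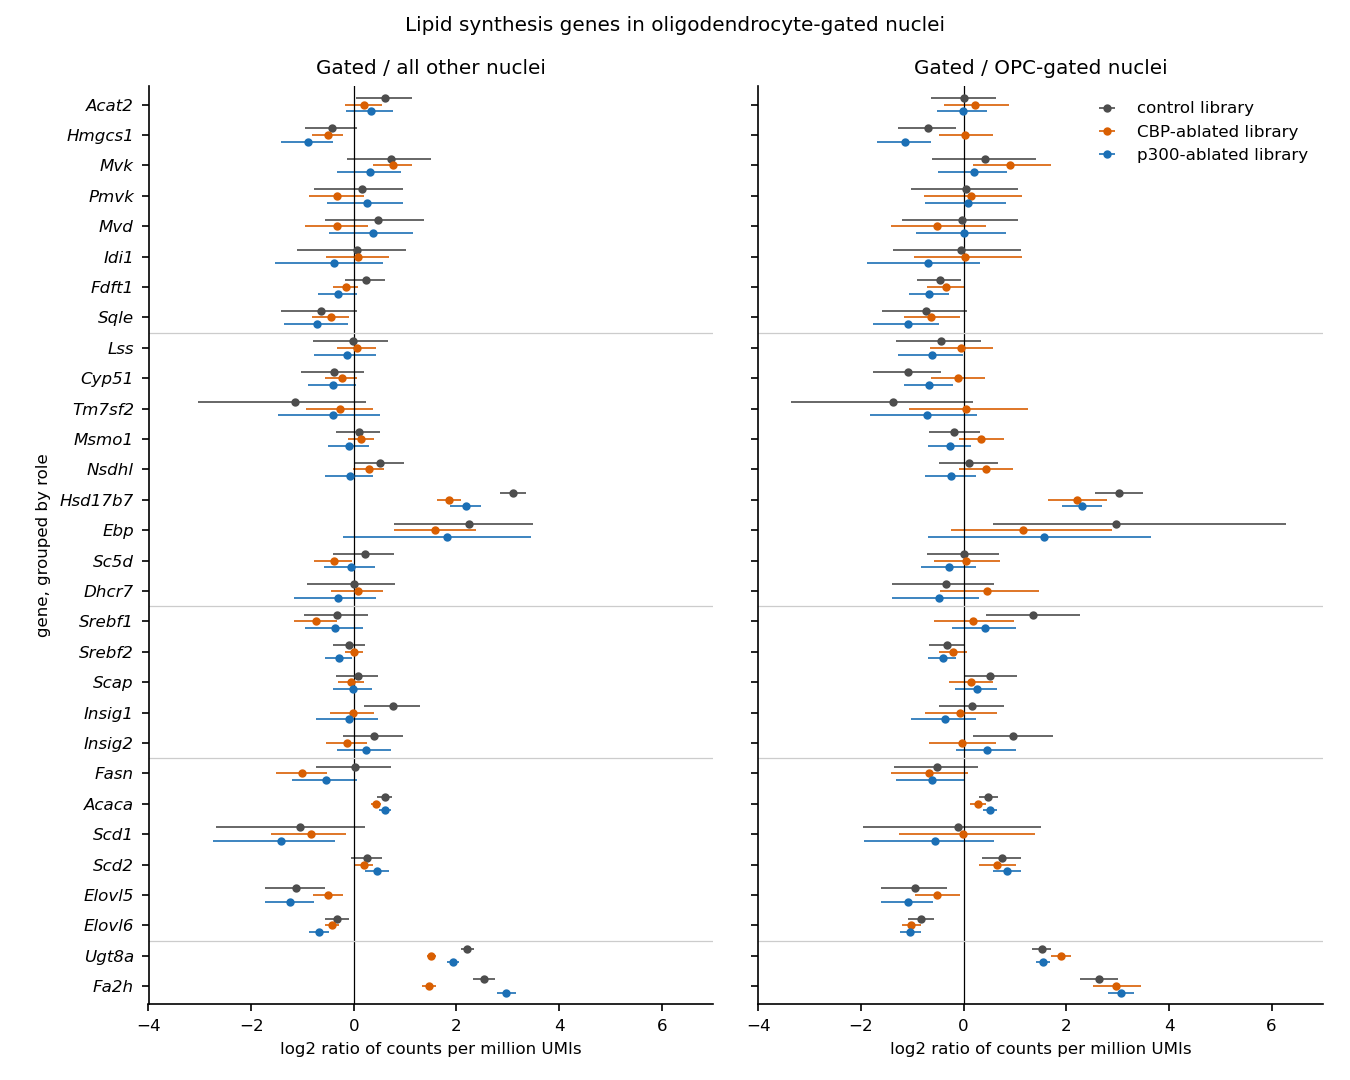
Log2 ratio of CPM in oligodendrocyte-gated nuclei over all other nuclei (left) and over OPC-gated nuclei (right) for 30 members, ordered by role, with 1 point per library and lines for 95% binomial intervals that cover counting error only. Hsd17b7, Ebp, Ugt8a and Fa2h lie at 1.15 or more in every library and panel, and most sterol genes lie around 0. Ratios are on the plain total-UMI scale, and Fdps, with 0 to 3 UMIs per sum against all other nuclei, is not drawn.

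Among the lanosterol to cholesterol steps 3 of 9 members were higher (33.3%) and 0 lower, beside 15.8% and 21.8% of all genes tested. Hsd17b7, the ketoreductase that acts during removal of the methyl groups at carbon 4 of the sterol ring, lies at chr1:169949535-169969241 (minus strand). No other gene of the deposited matrices overlaps it. It had 203, 108 and 98.0 CPM in gated nuclei (185, 336 and 122 UMIs) and 23.6, 30 and 21.6 CPM in the others. The groups did not overlap, and the log2 difference was 2.61 ± 0.21 (SE, n = 3, edgeR adjusted p = 7.52e-07). Gated nuclei held 5.60%, 24.4% and 6.60% of all UMIs of the libraries but 33.7%, 53.8% and 24.3% of the Hsd17b7 UMIs. The level was not highest at the most gate UMIs: nuclei with 0, 1 to 3, 4 to 9 and 10 or more gate UMIs had 20.2, 71.8, 246 and 185 CPM in the control. The same bins gave 23.9, 44.4, 153 and 96.9 CPM with CBP ablated, and 20.4, 39.4, 130 and 89.7 CPM with p300 ablated. The highest value was thus in the 4 to 9 bin in all 3 libraries, where Ugt8a was at 574, 642 and 537 CPM, with 670, 734 and 611 CPM in the last bin. The bin of 4 to 9 gate UMIs held 54, 113 and 46 nuclei, and the bins were not tested against each other.

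Ebp, the sterol isomerase that moves the ring double bond, was sparse. It had 7.66, 8.99 and 3.21 CPM in gated nuclei (7, 28 and 4 UMIs) and 1.62, 3.01 and 0.907 CPM in the others, a log2 difference of 2.04 ± 0.40 (SE, n = 3, edgeR adjusted p = 0.00131), and too few UMIs for a test without the CBP-ablated library. Nsdhl, the decarboxylase that acts just before Hsd17b7, had 43.8, 44.6 and 33.7 CPM in gated and 30.8, 36.5 and 35.7 CPM in other nuclei. Its log2 difference of 0.48 ± 0.16 (SE, n = 3, edgeR adjusted p = 0.0375) was not called with total-UMI scaling, DESeq2, a gate of 8 UMIs, clusters in place of gates, thinning, no doublets or no low-count filter, or once any library was left out, and the p300-ablated library had the lower plain level in its gated nuclei. The remaining late steps were not called. Msmo1, the methyl oxidase before Nsdhl, had 54.7, 60.4 and 46.6 CPM in gated against 51.2, 54.7 and 49.7 CPM in other nuclei (log2 difference 0.29, edgeR adjusted p = 0.129), and Cyp51, the lanosterol demethylase, had 27.4, 34.4 and 33.7 against 35.7, 40.7 and 44.8 CPM. Lss, Tm7sf2, Sc5d and Dhcr7 lay between 4.38 and 29.6 CPM in gated nuclei.

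Among the mevalonate and squalene steps 2 of 8 tested members were higher (25.0%) and 0 lower, beside 15.8% and 21.8% of all genes tested. Mvk, mevalonate kinase, had 16.4, 28.9 and 20.1 CPM in gated and 9.87, 17.0 and 16.1 CPM in other nuclei (log2 difference 0.86 ± 0.20, SE, n = 3, edgeR adjusted p = 0.00451). Acat2, the thiolase that joins acetyl units at the pathway's entry, had 35.0, 28.6 and 36.1 against 23.0, 25.0 and 28.8 CPM (0.59 ± 0.16, SE, n = 3, edgeR adjusted p = 0.0128). The plain levels of both were above the others in each library, but the gated and other values overlapped across libraries. Neither gene was called after thinning. Acat2 was not called with total-UMI scaling, DESeq2 or clusters in place of gates, nor without the control (0.41) or the p300-ablated library (0.55). Mvk was not called without the CBP-ablated library (0.61). Hmgcs1, the synthase that forms the precursor of mevalonate, had 38.3, 35.6 and 28.1 CPM in gated and 51.3, 50.7 and 52.0 CPM in other nuclei. Its log2 difference of -0.36 was not called (edgeR adjusted p = 0.104). It was called lower with total-UMI scaling, with clusters in place of gates, without the astrocyte-like class and without the low-count filter. Sqle, the squalene epoxidase, also had lower plain levels in the gated nuclei of each library, at 18.6, 25.7 and 19.3 against 28.8, 35.0 and 31.5 CPM (-0.33, edgeR adjusted p = 0.160). Fdft1, squalene synthase, had 66.8, 58.4 and 51.4 against 57.0, 65.2 and 63.3 CPM, so that its libraries disagreed in direction. Pmvk, Mvd and Idi1 had 7.23 to 14.5 CPM in gated nuclei and were not called, and Fdps had 0 to 2 UMIs per gated sum, too few for a test. Whole libraries held 2, 3 and 3 Fdps UMIs. The gene overlaps Gm43738 on the same strand, and the part of this in its low count was not tested.

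Summed over the 18 sterol genes, the level was 615, 540 and 474 CPM in gated nuclei and 413, 476 and 454 CPM in the others. The log2 ratios were 0.57 (95% interval 0.45 to 0.70), 0.18 (0.10 to 0.26) and 0.06 (-0.06 to 0.18), where intervals cover counting error only. Without Hsd17b7 the remaining 17 genes gave 413, 432 and 376 CPM against 389, 446 and 433 CPM, with log2 ratios of 0.08 (-0.07 to 0.23), -0.05 (-0.14 to 0.04) and -0.20 (-0.34 to -0.07). With Hsd17b7 the intervals of the control and CBP-ablated libraries lay above 0. Without it both held 0, and that of the p300-ablated library lay below 0.

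None of the 5 SREBP regulators was called against all other nuclei by the edgeR test, where 15.8% of all genes tested were higher and 21.8% lower. Srebf2, the SREBP that mainly drives sterol genes, had 105, 107 and 99.6 CPM in gated and 112, 107 and 122 CPM in other nuclei (log2 difference 0.11, edgeR adjusted p = 0.549). Srebf1, which mainly drives fatty acid genes, had 26.3, 18.3 and 24.1 against 32.7, 30.5 and 31 CPM (-0.27, edgeR adjusted p = 0.261) and was called lower with total-UMI scaling. Scap had 59.1, 56.2 and 51.4 against 56.0, 58.4 and 51.8 CPM. Insig1 was above the others in the control library alone, at 36.1 against 21.2 CPM, and close to them in the ablated libraries, with 19.9 against 20.2 CPM and 20.9 against 22.3 CPM. Insig2 had 30.7, 22.8 and 28.1 against 23.2, 25.0 and 24.0 CPM (0.37, edgeR adjusted p = 0.123).

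Fatty acid synthesis was split, with 2 of 6 members higher (33.3%) and 2 lower (33.3%), beside 15.8% and 21.8% of all genes tested. Acaca, the acetyl-CoA carboxylase that makes malonyl-CoA, had 462, 435 and 492 CPM in gated and 304, 322 and 322 CPM in other nuclei, a narrow spread in both groups (log2 difference 0.79 ± 0.13, SE, n = 3, edgeR adjusted p = 0.000452). Scd2, the main stearoyl-CoA desaturase of brain, had 113, 100 and 127 against 94.8, 87.7 and 92.5 CPM (0.54 ± 0.13, SE, n = 3, edgeR adjusted p = 0.00480), and was not called with total-UMI scaling or without the p300-ablated library (0.41). Scd1, the related desaturase, went the other way at 5.47, 6.42 and 5.62 against 11.2, 11.5 and 15.0 CPM (-0.81 ± 0.29, SE, n = 3, edgeR adjusted p = 0.0418). Its gated sums held 5, 20 and 7 UMIs, and it was called only with all 3 libraries in the fit. Elovl5, which elongates polyunsaturated fatty acids, had 28.5, 40.8 and 30.5 against 62.0, 57.8 and 71.9 CPM (-0.65 ± 0.18, SE, n = 3, edgeR adjusted p = 0.0121), and was at -0.55 and not called without the p300-ablated library. Elovl6, which elongates saturated fatty acids, had 175, 175 and 166 against 219, 235 and 266 CPM (-0.24, edgeR adjusted p = 0.200), and Fasn, the fatty acid synthase, had 19.7, 13.2 and 18.5 against 19.3, 26.3 and 26.8 CPM (-0.35, edgeR adjusted p = 0.237).

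Oligodendrocyte precursors give a closer reference than all other nuclei. OPC-gated nuclei, with at least 4 UMIs of Pdgfra and Cspg4 together and outside the oligodendrocyte gate, numbered 539, 318 and 1256 with medians of 3528, 3694 and 4190 UMIs. The clusters described below placed 392, 139 and 980 of these in the NPC/OPC-like class and 29, 112 and 16 in cluster 7. OPC-gated nuclei thus differed in make-up between the libraries. Against them 8 of 29 tested members were higher (27.6%, where 23.0% of 10338 genes were), 3 were lower (10.3%, where 21.7% of genes were) and 18 were not called (Ebp and Fdps had too few UMIs), with a median log2 difference of 0.03 over the members and 0.00 over all genes. The share of higher members was thus near that of all genes. With total-UMI scaling the split was 5 higher and 7 lower.

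Fa2h was at 40.7, 33.2 and 36.6 CPM in OPC-gated nuclei, 3.03 ± 0.14 log2 units below its gated level (SE, n = 3, edgeR adjusted p = 1.09e-08). Hsd17b7 was at 25.0, 23.5 and 19.8 CPM, a difference of 2.65 ± 0.18 (SE, n = 3, edgeR adjusted p = 1.97e-07), and Ugt8a at 224, 193 and 204 CPM, a difference of 1.78 ± 0.14 (SE, n = 3, edgeR adjusted p = 6.35e-07). OPC-gated levels of these genes were close to each other across the libraries. The OPC-gated Ugt8a level was above that of microglia-like nuclei in the control and p300-ablated libraries, and in the CBP-ablated library it lay within the counting interval of microglia-like nuclei (103 to 274 CPM). Scd2, at 67.7, 64.0 and 70.7 CPM in OPC-gated nuclei, was higher in the oligodendrocyte gate by 0.88 ± 0.12 log2 units (SE, n = 3, edgeR adjusted p = 0.000106) and Acaca by 0.56 ± 0.12 (SE, n = 3, edgeR adjusted p = 0.00208). The weaker calls were Srebf1 (0.71, edgeR adjusted p = 0.0409), Mvk (0.63, edgeR adjusted p = 0.0482) and Scap (0.42, edgeR adjusted p = 0.0438), none of which was called with total-UMI scaling. Srebf1 and Scap were not called once any library was left out, nor Mvk without the control or the CBP-ablated library. Insig2, at 15.7, 23.5 and 20.6 CPM in OPC-gated nuclei, was not called (0.56, edgeR adjusted p = 0.0630). It was called higher once the CBP-ablated library was left out.

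Lower than in OPC-gated nuclei were Elovl6, Elovl5 and Sqle. Elovl6 was at 311, 354 and 342 CPM in OPC-gated nuclei, above each of its gated values (log2 difference -0.83 ± 0.12, SE, n = 3, edgeR adjusted p = 0.000136). Elovl5 was at 55.0, 58.3 and 65.0 CPM (-0.69 ± 0.18, SE, n = 3, edgeR adjusted p = 0.00833) and Sqle at 30.9, 39.7 and 41.0 CPM (-0.67 ± 0.20, SE, n = 3, edgeR adjusted p = 0.0149), neither of them called without the p300-ablated library. The 17 sterol genes without Hsd17b7 summed to 516, 415 and 524 CPM in OPC-gated nuclei, and the log2 ratio of the oligodendrocyte gate to them was -0.32 (-0.50 to -0.15), 0.06 (-0.09 to 0.21) and -0.48 (-0.62 to -0.34). The OPC-gated sum was lowest in the CBP-ablated library, beside oligodendrocyte-gated sums of 413, 432 and 376 CPM. In that library 139 of the 318 OPC-gated nuclei were NPC/OPC-like, and the part of this composition in the difference was not tested.

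Clusters of nuclei, named from markers, placed the highest sterol gene levels in committed or newly forming oligodendrocyte-like nuclei. Clusters 8 and 12, which met no marker list, kept their numbers, and so did clusters 6 and 7, which both met the list of immature neurons. A class was no test, since its nuclei were grouped by their expression, although 0 members were among the 1617 variable genes used to group them. Committed or newly forming oligodendrocyte-like nuclei, led by Bmp4 and Enpp6, numbered 395, 609 and 236, had medians of 4194, 4562 and 4836 UMIs and lay mostly outside the gate, with 17, 33 and 11 gated nuclei. Their sum over the 17 sterol members without Hsd17b7 was 770, 727 and 660 CPM. Oligodendrocyte-like nuclei had 391, 410 and 364 CPM, NPC/OPC-like nuclei 544, 471 and 534 CPM, and RGC/PSC-like nuclei 261, 246 and 242 CPM. In the control library the 1279 astrocyte-like nuclei had 176 CPM. The log2 ratio of committed to oligodendrocyte-like nuclei was 0.98 (0.80 to 1.16), 0.83 (0.72 to 0.93) and 0.86 (0.69 to 1.03), and 15, 15 and 16 of the 17 genes were higher in committed nuclei. With Hsd17b7 included the ratio was 0.56 (0.41 to 0.71), 0.59 (0.49 to 0.68) and 0.58 (0.42 to 0.74). In that case 15, 15 and 16 of the 18 genes were higher in committed nuclei. The share of all genes that were higher in them was not counted. At resolution 1.2 the 18-gene intervals against a further cluster with oligodendrocyte markers held 0 in the control and p300-ablated libraries.

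**Figure D2:**
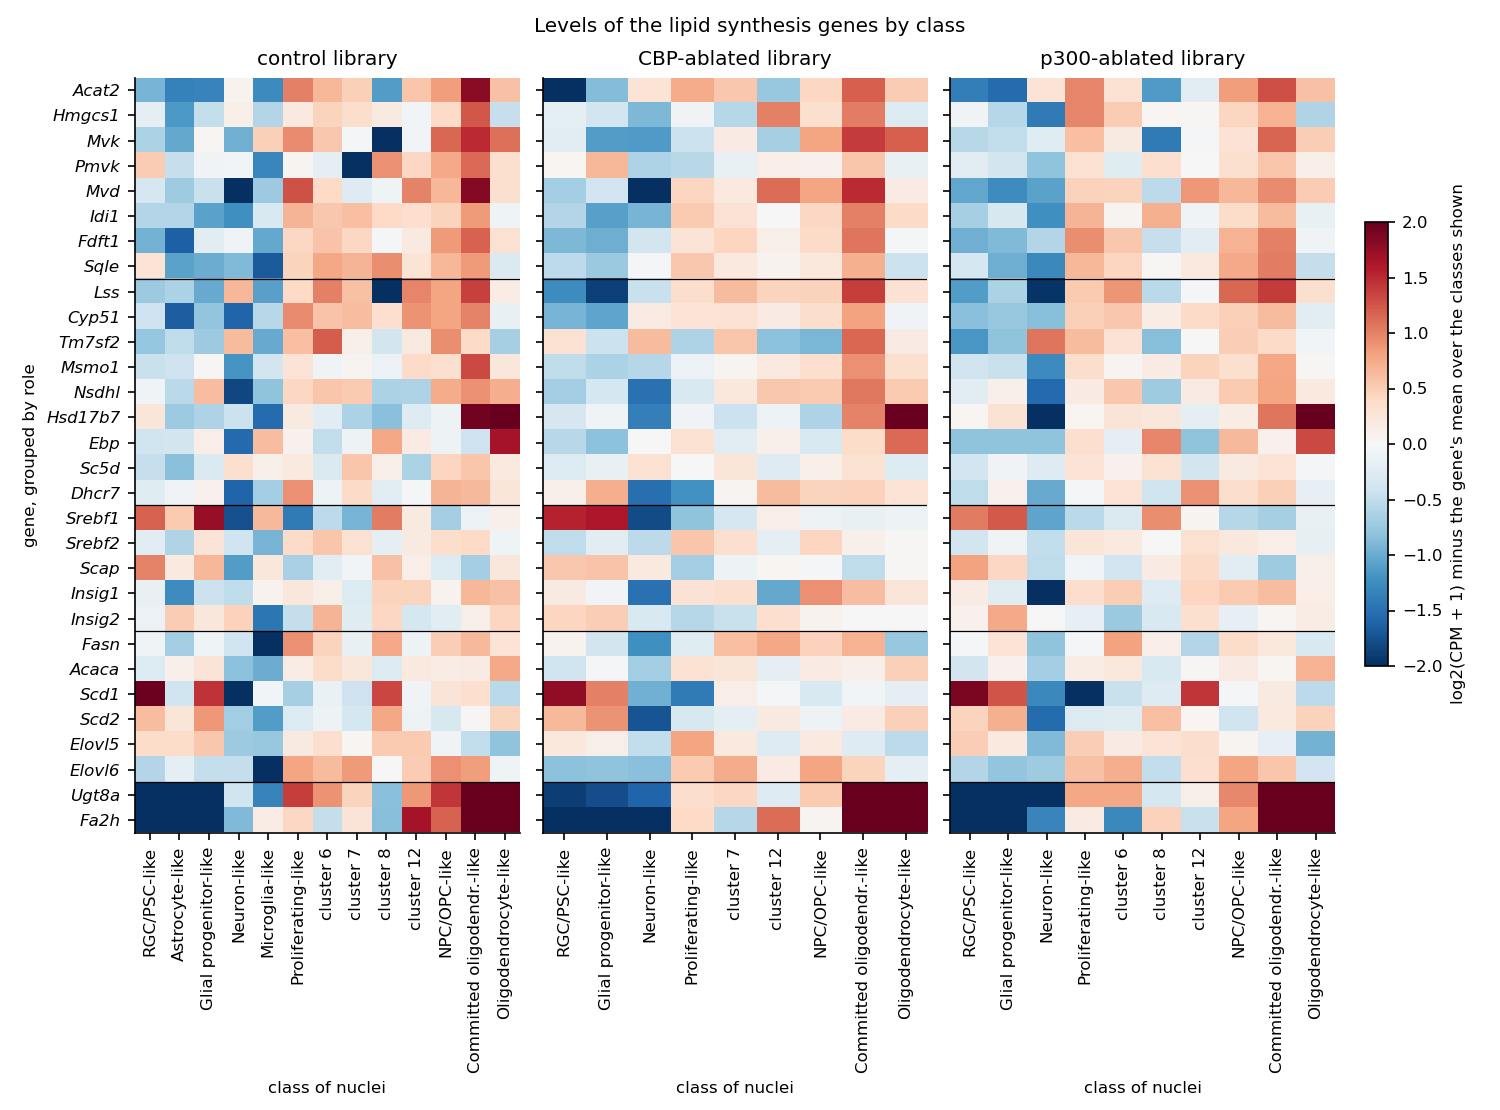
Level of 30 members in each class of nuclei with at least 200000 UMIs, per library, as log2(CPM + 1) minus the gene's mean over the classes shown, with rows ordered by role and colours capped at 2 in either direction. Most sterol genes are darkest in the committed column, and Hsd17b7, Ugt8a and Fa2h extend into the oligodendrocyte-like column.

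Gene by gene, the interval of the ratio of committed to oligodendrocyte-like nuclei lay above 0 for 8, 12 and 8 of the 17 genes and below 0 for 1, 0 and 0. The same share over all genes was not counted, here or for the higher genes given above, so these counts describe the members alone. Acat2, Cyp51, Fdft1, Lss, Msmo1, Mvd, Mvk and Nsdhl, 8 of the 17, had their highest class level in committed nuclei in all 3 libraries, and the share of all genes that did was not counted. Fdft1 was at 92.3, 69.7 and 82.4 CPM in NPC/OPC-like, 116, 113 and 103 CPM in committed and 62.8, 52.8 and 48.0 CPM in oligodendrocyte-like nuclei. Lss, which closes squalene oxide to lanosterol, was at 28.2, 25.7 and 33.9 CPM, then 42.5, 49.6 and 40.3 CPM, then 17.8, 22.7 and 18.5 CPM. Msmo1 was at 57.3, 59.8 and 57.5 CPM, then 115, 89.6 and 78.8 CPM, then 53.3, 58.9 and 46.3 CPM. Fdft1, Lss and Msmo1 are examples from the 8 genes named above. That the committed value was their highest follows from this choice and is a description without a test.

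Acaca, Ebp, Hsd17b7 and Ugt8a were highest in oligodendrocyte-like nuclei in all 3 libraries, where Ebp rested on 7, 25 and 4 UMIs. With a finer clustering (resolution 1.2) that class was the highest for 1, 1 and 3 members only. The further cluster with oligodendrocyte markers then had 838, 571 and 791 CPM over the 18 sterol genes. Without Hsd17b7 it had 508, 431 and 565 CPM. Oligodendrocyte-like nuclei had 455, 481 and 401 CPM with Hsd17b7 and 333, 395 and 322 CPM without it. Hsd17b7 was thus higher in that cluster than in oligodendrocyte-like nuclei at this resolution, in all 3 libraries. At resolution 0.6 Hsd17b7 was at 20.7, 17.4 and 20.7 CPM in NPC/OPC-like, 87.4, 54.9 and 40.3 CPM in committed and 191, 110 and 104 CPM in oligodendrocyte-like nuclei. Ugt8a went from 244, 219 and 218 CPM through 470, 618 and 447 CPM to 626, 709 and 581 CPM. Fa2h was about as high in committed as in oligodendrocyte-like nuclei, at 266, 290 and 276 CPM against 251, 255 and 303 CPM, with 44.2, 35.7 and 42.8 CPM in NPC/OPC-like nuclei.

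**Figure D3:**
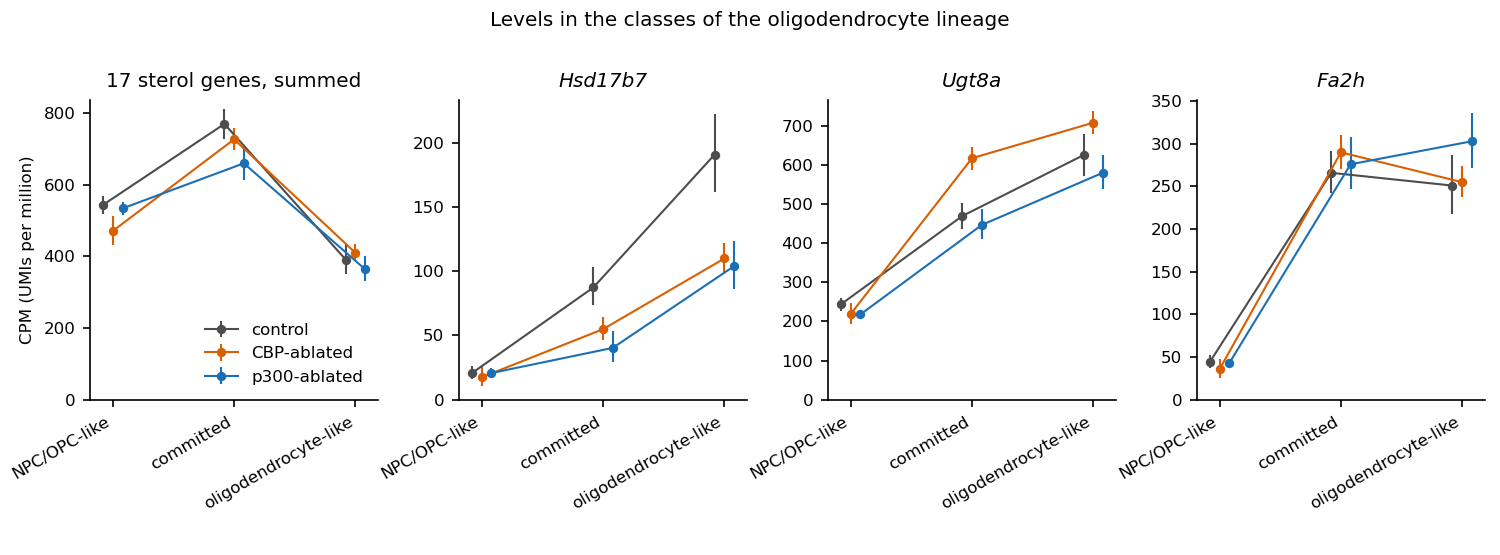
Level in CPM of the 17 sterol members without Hsd17b7 (summed), Hsd17b7, Ugt8a and Fa2h in the NPC/OPC-like, committed and oligodendrocyte-like classes, with 1 line per library and bars for exact Poisson 95% intervals of counting error. The sterol sum peaks at 660 to 770 CPM in committed nuclei, while Hsd17b7 and Ugt8a are highest in oligodendrocyte-like nuclei in all 3 libraries.

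Elovl6, Scd1, Scd2 and the regulator Srebf1 were highest in other classes. Elovl6 was highest in NPC/OPC-like nuclei (326, 353 and 354 CPM), Scd1 in RGC/PSC-like nuclei (31.5, 27.7 and 35.5 CPM), and Scd2 (155, 138 and 149 CPM) and Srebf1 (83.5, 62.4 and 63.4 CPM) in glial progenitor-like nuclei, in all 3 libraries. Srebf1 was thus above its oligodendrocyte-like levels of 26.1, 18.3 and 23.6 CPM in a glial class of each library. Over all 31 members the committed class was the highest for 13, 13 and 11, and the oligodendrocyte-like class for 4, 5 and 5. The shares of all genes that were highest in these classes were not counted, so whether the members differ from them is not known.

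The ablated libraries were set against the control within the same kind of nuclei, to ask whether the label of CBP or p300 loss went with other levels of these genes. With 1 library per condition there was no test, and the 95% intervals cover counting error between 2 libraries only. In gated nuclei 0 of 30 members for which the compared pair of libraries held 20 UMIs or more differed by 2-fold in the CBP-ablated library, where 8.91% of 9877 genes did, and 1 of 26 in the p300-ablated library, where 6.38% of 7943 genes did. The median log2 ratio of the members was 0.01 and -0.08, against 0.11 and 0.07 over all genes.

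The member past 2-fold was Hsd17b7 in the p300-ablated library. From 203 CPM in control gated nuclei it was at 108 CPM in CBP-ablated gated nuclei (log2 ratio -0.91, interval -1.17 to -0.64) and at 98.0 CPM in p300-ablated ones (-1.05, -1.39 to -0.71). Both intervals span a 2-fold difference and exclude 0. Of the gate genes, Mobp had ratios of 0.71 and 0.30 and Mog -0.17 and -0.28 in the same nuclei, and the part of such differences within the gate was not tested. Outside the gate the ratios were 0.34 (0.12 to 0.57) and -0.13 (-0.34 to 0.08). By class the ratio was -0.80 and -0.88 in oligodendrocyte-like nuclei, -0.67 (-1.01 to -0.34) and -1.12 (-1.63 to -0.64) in committed nuclei, and -0.25 (-1.02 to 0.47) and 0.00 (-0.42 to 0.43) in NPC/OPC-like nuclei. The lower level was thus found in committed and oligodendrocyte-like nuclei of both ablated libraries, and in NPC/OPC-like nuclei the intervals held 0. At resolution 1.2 oligodendrocyte-like nuclei numbered 108, 271 and 160. The further cluster with oligodendrocyte markers, where Hsd17b7 was higher, held 52, 216 and 33 nuclei. The part of this composition in the ratios of gated and oligodendrocyte-like nuclei was not tested.

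**Figure D4:**
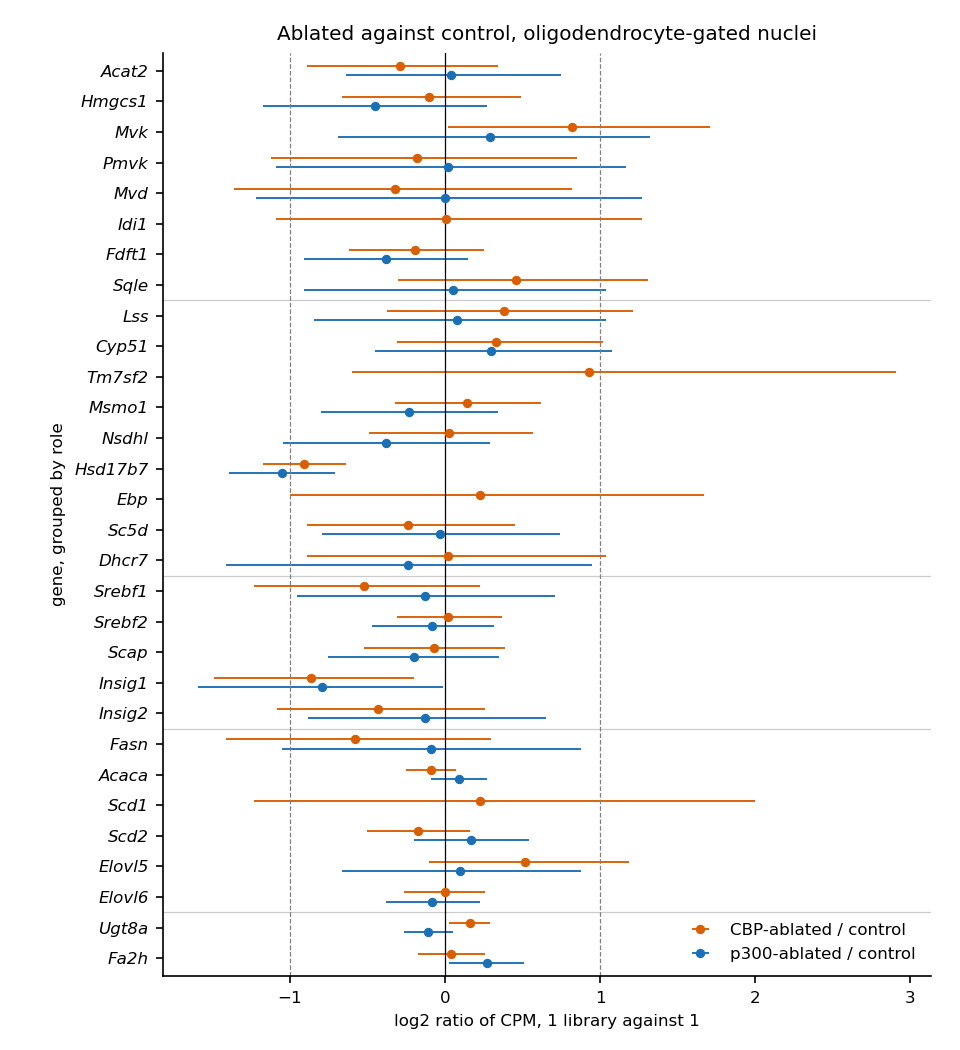
Log2 ratio of CPM in oligodendrocyte-gated nuclei of the CBP-ablated or p300-ablated library over the control library, for members with 20 UMIs or more over the compared pair, with 95% binomial intervals of counting error and dashed lines at 2-fold. Hsd17b7 lies at -0.91 and -1.05 and Insig1 at -0.86 and -0.79, and most other intervals hold 0.

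Insig1, the sterol-sensing brake on SREBP processing, was at 36.1 CPM in control gated nuclei (33 UMIs) and at 19.9 and 20.9 CPM in the ablated ones (62 and 26 UMIs), with log2 ratios of -0.86 (-1.49 to -0.20) and -0.79 (-1.59 to -0.01). Mvk was at 0.82 (0.02 to 1.71) in the CBP-ablated library. Ugt8a had ratios of 0.16 (0.03 to 0.29) and -0.11 (-0.26 to 0.05), and Fa2h 0.04 and 0.27 (0.03 to 0.51). Each of these was within 2-fold, and the intervals of the other members in gated nuclei held 0. The share of all genes whose interval in gated nuclei excluded 0 was not counted. Whether the members differ from other genes in this is therefore not known. In all nuclei together Ugt8a had a log2 ratio of 1.13 in the CBP-ablated library, where 17% of nuclei were gated against 3.48% in the control.

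The sum of the 18 sterol genes in gated nuclei was 615, 540 and 474 CPM, with log2 ratios to the control of -0.19 (-0.33 to -0.05) for the CBP-ablated and -0.38 (-0.55 to -0.21) for the p300-ablated library. Without Hsd17b7 they were 0.07 (-0.10 to 0.23) and -0.14 (-0.33 to 0.06), so that both intervals held 0. By class and in the same order, the 17 genes without Hsd17b7 gave -0.21 (-0.34 to -0.07) and -0.03 (-0.11 to 0.05) in NPC/OPC-like nuclei. In committed nuclei they gave -0.08 (-0.18 to 0.02) and -0.22 (-0.35 to -0.09), and in oligodendrocyte-like nuclei 0.07 (-0.11 to 0.25) and -0.10 (-0.31 to 0.11). Outside the gate the 18 genes gave 0.20 (0.15 to 0.26) and 0.14 (0.09 to 0.18), and without the astrocyte-like nuclei of the control, whose sterol level was low, -0.04 (-0.10 to 0.02) and -0.11 (-0.16 to -0.06). In NPC/OPC-like nuclei Tm7sf2 was at 3.32 CPM (4 UMIs) with CBP ablated and 16.3 CPM (56 UMIs) in the control. Its log2 ratio was -2.30 (-4.22 to -0.86), and -0.23 (-0.72 to 0.27) with p300 ablated. The share of all genes past 2-fold in that class was not counted.

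Within committed nuclei, 2 of 29 members with 20 UMIs or more had an interval above 0 and 6 below it in the CBP-ablated library (15.3% and 9.13% of 10055 genes), and 1 and 3 in the p300-ablated library (8.60% and 6.73% of 8687 genes). Those below 0 in both libraries were Hsd17b7, given above, Hmgcs1 and Msmo1. Hmgcs1 was at 114, 84.6 and 69.4 CPM, with log2 ratios to the control of -0.43 (-0.72 to -0.15) and -0.72 (-1.11 to -0.34). Msmo1 had ratios of -0.36 (-0.64 to -0.08) and -0.54 (-0.92 to -0.18), and in the CBP-ablated library Acat2 was at -0.58 (-0.95 to -0.20), Srebf2 at -0.36 (-0.61 to -0.11) and Insig1 at -0.61 (-1.12 to -0.09). Above 0 there were Mvk (0.59, 0.02 to 1.18) and Ugt8a, and in the p300-ablated library Elovl5 (0.54, 0.02 to 1.06). Ugt8a was at 470, 618 and 447 CPM there, a ratio of 0.39 (0.27 to 0.52) for the CBP-ablated library. Outside the gate Fa2h passed 2-fold with CBP ablated (log2 ratio 1.11, 0.96 to 1.25), where 8.33% of 15594 genes did, beside the larger share of committed nuclei given above. In the p300-ablated library 0 of 30 members outside the gate did, where 6.08% of 16101 genes passed 2-fold.

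Genes around the members were counted from lists of their pathway neighbours. Of 15 other sphingolipid and galactolipid genes 7 were higher (46.7%) and 4 lower (26.7%) in gated than in all other nuclei, where 15.8% of all genes tested were higher and 21.8% lower. The highest was Gal3st1, which sulfates galactosylceramide to sulfatide (log2 difference 2.84, edgeR adjusted p = 6.46e-08), followed by Cers2, the ceramide synthase for very long chains (1.71, edgeR adjusted p = 4.17e-06). Cers4 (-3.04, edgeR adjusted p = 3.98e-07) and Cers6 (-1.84, edgeR adjusted p = 2.86e-06), ceramide synthases with other chain preferences, were the lowest. Of 17 other genes of sterol handling 5 were higher (29.4%, beside the same 15.8%), led by Osbpl1a, a sterol-binding protein (1.74, edgeR adjusted p = 3.73e-07), and Npc2, which exports cholesterol from lysosomes (1.60, edgeR adjusted p = 3.08e-06). The 4 lower ones (23.5%, beside 21.8% of all genes) were led by the lipoprotein receptor Lrp1 (-3.15, edgeR adjusted p = 1.51e-07) and the sterol carrier Stard4 (-1.58, edgeR adjusted p = 0.0316).

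Of 20 other fatty acid genes 5 were higher (25%) and 8 lower (40%), beside 15.8% and 21.8% of all genes. Aspa, which frees acetate from N-acetylaspartate and was also one of the oligodendrocyte markers (5.26, edgeR adjusted p = 1.82e-08), and the elongase Elovl7 (3.27, edgeR adjusted p = 3.70e-07) were the highest. The acyl-CoA synthetases Acsbg1 (-3.15, edgeR adjusted p = 1.74e-06) and Acsl6 (-2.97, edgeR adjusted p = 3.51e-07) were the lowest. Against OPC-gated nuclei 7 of 14 sphingolipid genes, 8 of 16 sterol handling genes and 7 of 18 fatty acid genes were higher and 3, 4 and 6 were lower, beside 23.0% and 21.7% of all genes. Gal3st1 (2.69), Osbpl1a (2.71) and Elovl7 (4.10) were higher there too, with edgeR adjusted p-values of 5.12e-08, 1.20e-08 and 6.43e-09.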

How the data were processed

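The 3 matrices, as deposited by the authors, hold raw UMI counts per gene and nucleus (3′ kit v3, Cell Ranger 3.1, GRCm38/mm10, exons and introns counted, FastQC 0.11.9 and Seurat 2.3.4 in the submitters' processing notes), and every deposited barcode, the lowest with 500 UMIs, was kept. Called doublets were kept in the main analysis. They were the 191, 73 and 173 nuclei with the highest Scrublet scores (scanpy 1.11.5), at an assumed rate of 0.8% per 1000 nuclei. Scrublet's own threshold called 149, 109 and 78 nuclei. UMIs were summed per library and gate in Python 3.11.15 (numpy 2.4.6, scipy 1.17.1, pandas 2.3.3), and genes with at least 10 UMIs in at least 3 of the 6 sums were tested with edgeR 4.0.16 (quasi-likelihood, TMM, library as a block, Benjamini-Hochberg over all genes, threshold 0.05). The gate sums of a library are paired because they come from the same pool of nuclei. The 3 libraries differ in genotype and nothing says that the pools were repeated, so p-values measure the spread between these libraries, and SE is the log2 difference divided by the square root of F. The fit was tested on simulated data with as many genes raised as lowered. That test does not bear on the choice of scaling.

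Ablated and control libraries were compared by log2 CPM ratios with conditional binomial 95% intervals, levels carry exact Poisson intervals, and a count of 0 was given the limit of 3 nuclei. These cover counting error only. Classes came from Seurat 5.3.0 (20 components, 30 neighbours, resolution 0.6) and were named where at least 60% and at least 3 of a list's markers were detected in 10% of nuclei and 2-fold above the rest. Clusters 8 and 12 met no list and kept their numbers. Clusters 6 and 7 met 4 and 3 of the 5 immature neuron markers and were left by number to keep them apart. Alternatives were gates of 2 and 8 UMIs, clusters in place of gates, nuclei thinned to 1500 UMIs, no doublets, DESeq2 1.42.0 and its size factors, no low-count filter, no library block, resolution 1.2 and leaving out each library. Total-UMI scaling, leaving out the astrocyte-like class and leaving out Hsd17b7 were added after the data were seen. All 31 members, and the 2 highest and 2 lowest of each pathway list, are named. Members and lists were chosen with earlier results of these data known. Fdps overlaps Gm43738 and Tm7sf2 overlaps Vps51 on the same strand, and the part of this overlap in their counts was not tested. Promoters are from RefSeq on GRCm38.p6, gene positions from GENCODE on GRCm38.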

Additional observations from a re-analysis of the deposited data

How the results depend on the processing

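Acaca, Fa2h, Hsd17b7 and Ugt8a were higher in both gate comparisons under every alternative run, with log2 differences of 2.03 to 2.79 for Hsd17b7, 1.87 to 2.20 for Ugt8a, 2.18 to 2.89 for Fa2h and 0.55 to 0.86 for Acaca against all other nuclei. Against all other nuclei the 9 higher calls became 4 after thinning to 1500 UMIs and 6 to 7 when a library was left out, and the 2 lower calls became 0 after thinning, 1 with a gate of 8 UMIs, 1 with DESeq2, 7 with total UMIs and 0 to 1 when a library was left out, with 0 without the p300-ablated library and 1 without either other. Thinning changed the sets as well as the depth, since both gates were applied again to the thinned counts. They then held 85, 304 and 102 oligodendrocyte-gated and 119, 84 and 255 OPC-gated nuclei. Mvk was not called and Ebp not tested without the CBP-ablated library, Acat2 was not called without the control or the p300-ablated one, Scd2 and Elovl5 not without the p300-ablated one, and Nsdhl and Scd1 only with all 3 libraries. Against OPC-gated nuclei the 8 higher calls became 4 after thinning, which left 13 members tested, and 5 with clusters in place of gates, with total UMIs and with DESeq2, and 5 to 6 when a library was left out. The 3 lower calls became 9 with clusters, 7 with total UMIs, 1 with DESeq2 and 1 to 6 when a library was left out (6 without the CBP-ablated and 1, Elovl6, without the p300-ablated library). Without the library block the calls were 9 and 2 against all other nuclei and 7 and 3 against OPC-gated nuclei.

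The summed sterol ratio of the p300-ablated library in gated nuclei was -0.59 after thinning and -0.14 without Hsd17b7, and that of the CBP-ablated library changed sign to 0.07 without Hsd17b7. Outside the gate the CBP-ablated ratio was 0.28 after thinning, 0.10 with TMM-scaled sums and -0.04 without the astrocyte-like class, and the p300-ablated ratio was -0.11 without that class. The 2-fold count in gated nuclei became 1 in the CBP-ablated library with a gate of 8 UMIs or without doublets, and 0 in the p300-ablated library with gates of 2 or 8 UMIs, clusters or no doublets. At resolution 1.2 the oligodendrocyte-like class was the highest for 1, 1 and 3 members, and an unnamed cluster 15 with 6 of 11 oligodendrocyte markers had split off. Committed nuclei then exceeded oligodendrocyte-like ones in the 17-gene sterol sum by 1.21, 0.88 and 1.03 on the log2 scale, and that cluster by 0.60, 0.76 and 0.22 (p300-ablated interval -0.06 to 0.52). With all 18 sterol genes the log2 ratios to oligodendrocyte-like nuclei were 0.91, 0.70 and 0.80. Those to cluster 15 were 0.03 (-0.17 to 0.24), 0.46 (0.33 to 0.58) and -0.18 (-0.42 to 0.07), so that the control and p300-ablated intervals held 0.

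Uncalled members changed sign as follows, and the cause was not tested. Against all other nuclei Hmgcs1 was at 0.02 with a gate of 2 UMIs, Lss at -0.02 with a gate of 8 UMIs, and Pmvk, Mvd and Scap at -1.55, -0.85 and -0.06 after thinning. With total UMIs Pmvk was at -0.03, Idi1 at -0.05, Fdft1 at -0.09, Lss at -0.02, Sc5d at -0.12, Dhcr7 at -0.05, Srebf2 at -0.12 and Scap at -0.00. Leaving out a library gave Fdft1 -0.07 to 0.21, Sc5d -0.10 to 0.19, Dhcr7 -0.04 to 0.24 and Srebf2 -0.07 to 0.15. Against OPC-gated nuclei the cluster values were -0.12 for Acat2, -0.26 for Pmvk, -0.12 for Msmo1, -0.10 for Nsdhl, -0.28 for Sc5d and -0.18 for Insig1, and the total-UMI values -0.03 for Msmo1, -0.09 for Sc5d and -0.10 for Insig1. Sc5d was at -0.07 without doublets, -0.02 without a low-count filter and -0.05 without the block, and Insig1 at -0.01 with a gate of 2 UMIs, -0.03 without the filter and -0.05 without the block. Leaving out a library gave Mvd -0.17 to 0.00, Idi1 -0.24 to 0.15, Msmo1 -0.21 to 0.25, Nsdhl -0.07 to 0.43, Sc5d -0.15 to 0.18, Dhcr7 -0.41 to 0.22 and Insig1 -0.15 to 0.20.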
